A study of Mus musculus with 12 samples.

Results

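The myosin light chain genes Myl4, Myl6, Myl9, Myl10, Myl12a and Myl12b were described in RNA sequencing of mouse whole bone marrow. These 6 genes were taken by symbol from a table of 21853 gene identifiers. Myl12b is carried by 2 identifiers, so the genes make up 7 of the 21853. They were chosen by the deposited FPKM values, because Myl4 was lower in every treated group than in control. Each difference from control is given below as a description, with no test.

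Marrow came from B6 mice in 4 groups of 3 libraries, 12 in all. Control mice have no treatment in the labels, and neither gavage nor vehicle is stated for them. The TBI group received gamma rays to the whole body (5 Gy, 0.66 Gy/min) and, by gavage, 100 µL of the olive oil vehicle. Irradiated mice of the TBI+DEIX group were given DEIX orally, and mice of the DEIX group were given it without irradiation. The dose in both was 25 mg/kg each day for 14 days, and the series title names the compound as deinoxanthin, a carotenoid of radiation-resistant bacteria. Irradiated marrow was collected 14 days after exposure. The labels do not say that the 3 libraries of a group came from separate mice, so each p below measures the spread between these libraries, which may be technical.

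A class II myosin motor consists of a pair of heavy chains, each holding an essential and a regulatory light chain. Phosphorylation of the regulatory chain by myosin light chain kinase and other kinases switches non-muscle and smooth muscle myosin on, and myosin phosphatase reverses it. In blood cells the non-muscle form drives migration, cytokinesis and the release of platelets. Myl4, best known as the essential chain of atrial and embryonic muscle, and Myl6, the essential chain of non-muscle and smooth muscle cells, form one class. Myl9, Myl12a and Myl12b are regulatory chains of smooth muscle and non-muscle myosin, and Myl10 is a regulatory chain described in precursor lymphocytes.

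Levels are in FPKM (fragments relative to the length of a transcript and to all mapped fragments of its library), and differences are on the scale of log2(FPKM + 1). That scale understates changes of low genes. A gene was tested when at least 3 of the 12 libraries reached 1 FPKM, which 10994 genes and all 7 light chain identifiers did. Myl10 passed with only 5 libraries at that level, 1 control, 3 TBI and 1 TBI+DEIX. It would not have passed without the TBI group, where it was high, so its differences from TBI are given as descriptions, with no test. Myl4 and Myl9 passed with 10 libraries each. Depth was estimated from the commonest ratio of low FPKM values to those of control replicate 1, as read totals are not given. By this estimate 1 read was worth between 0.877 and 2.35 times as much FPKM as in that library. The TBI+DEIX libraries were the shallowest group (1.52 to 2.35), and the value of 2.35 rests on 14 genes. TBI+DEIX replicate 1 (2.35) stood apart from its group as the shallowest library by this estimate. It held the lowest Myl4, Myl6, Myl10 and Myl12a level of all 12 and the lowest level of the Myl12b gene's own locus. Differences of the light chains that this library moved strongly are also given without it.

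Myl4 was abundant in control marrow and low in every treated library. Control replicates 1 to 3 held 28.9, 31.5 and 33.7 FPKM. The TBI libraries held 1.07, 2.87 and 4.46 FPKM, the TBI+DEIX libraries 0.201, 1.91 and 0.823 FPKM, and the DEIX libraries 2.20, 1.65 and 2.98 FPKM. Every treated library lay below every control library, and the lowest control value was far above the highest treated one. The group means were 31.4 ± 2.43 (SD, n = 3) in control, 2.80 ± 1.70 in TBI, 2.28 ± 0.667 in DEIX and 0.977 ± 0.863 in TBI+DEIX, and the libraries of each treated group overlapped those of the other treated groups. On the log2 scale the means differed from control by -3.20 in TBI, -3.32 in DEIX and -4.12 in TBI+DEIX. In bulk marrow, fewer cells of a type that expresses a gene and less RNA of it per cell cannot be told apart.

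**Figure D1:**
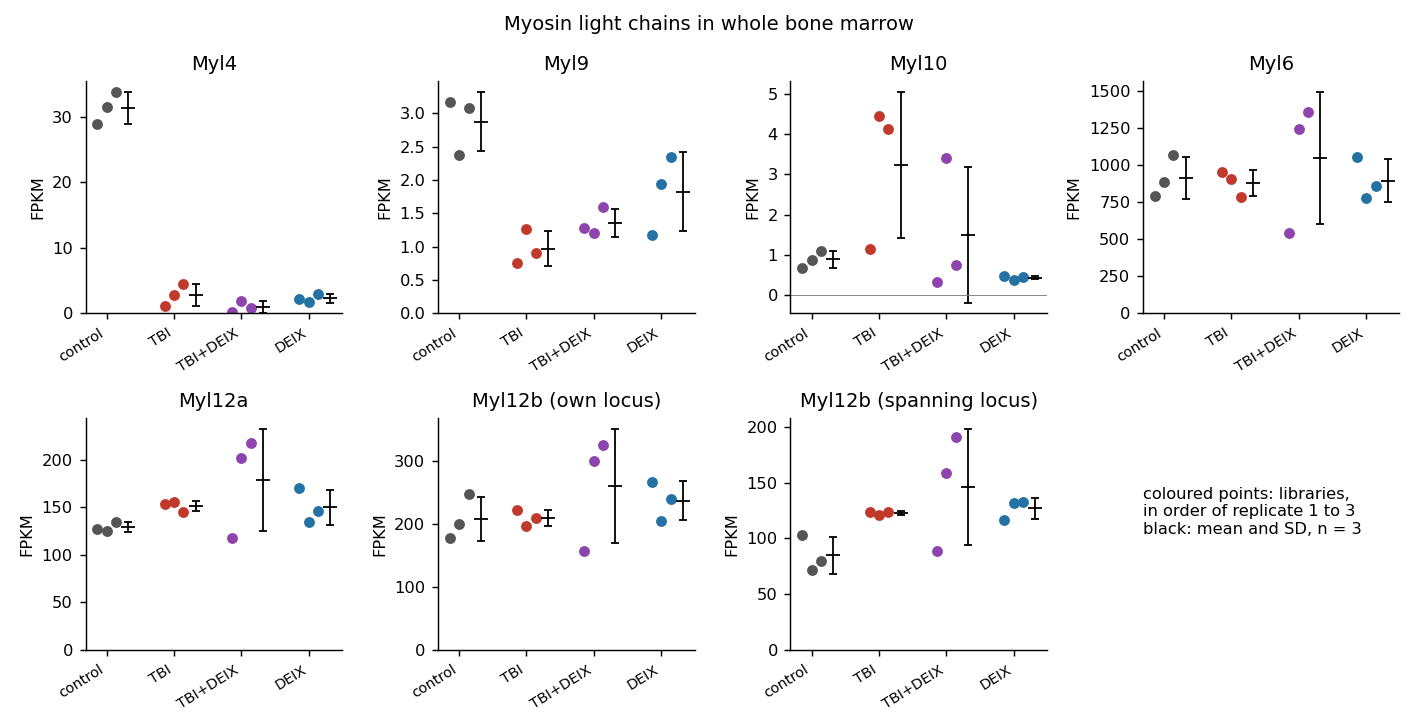
FPKM of each light chain identifier (vertical axes, 1 scale per panel) in the 4 groups, with 1 coloured point per library and the mean and SD of 3 libraries in black. Myl4 sits between 28.9 and 33.7 in control and at or below 4.46 elsewhere, while Myl6 stays between 539 and 1360 and the groups overlap.

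The Myl4 gene lies at chr11:104550663-104595753 on the plus strand of mm10 (GRCm38), and GENCODE vM21 gives it 8 transcript models. Only Myl4-201 starts at the first base. The others start 24783 to 34301 bp after it, and FPKM per gene does not tell which start was used. The first start is 43 bp from the outermost base of Cdc27, a subunit of the anaphase-promoting complex that is transcribed the other way. The stretch between them is shown because Cdc27 and Myl4-201 begin there, so that the levels of Cdc27 can be read beside those of Myl4. It runs from the base after Cdc27 to the fourth base of Myl4, chr11:104550621-104550666, plus strand, from the RefSeq promoter table for GRCm38.p6, with the letters CCGGAA (the core of ETS factor sites) in capitals.
Myl4 and Cdc27 start region: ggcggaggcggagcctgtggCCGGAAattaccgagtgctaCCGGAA
In the 300 bases from 250 before to 50 after the Myl4 start, CCGGAA occurred 2 times on either strand, and 14.9% of 32841 promoter windows of that length held it. That window had 0 matches to the TATA box TATAAA, which 13.6% of windows held. It also had 0 matches to the E-box letters CANNTG, which 72.3% of windows held. These letters are a description of the window and not of a factor's binding.

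Cdc27 stayed between 14.4 and 24.5 FPKM in all 12 libraries. Its difference from control was 0.27 in TBI (SE 0.13, adjusted p = 0.317), 0.25 in TBI+DEIX (adjusted p = 0.180) and 0.21 in DEIX (adjusted p = 0.362) by limma with Benjamini-Hochberg adjustment over 10994 genes. Itgb3, the integrin beta chain of platelets, begins 12247 bp after Myl4, and its level ran from 6.41 FPKM in TBI+DEIX replicate 1 to 21.4 FPKM in DEIX replicate 3. No comparison of Itgb3 passed the test, and its smallest adjusted p by limma was 0.293. Several noncoding genes lie antisense within Myl4, and whether the estimation of FPKM used the strand that the library kit keeps is not given in the sources used here.

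The 8 genes most like Myl4 by Pearson correlation of log2(FPKM + 1) over the 12 libraries, of 8579 genes compared, were Cpm and Rhoh (both r = 0.99), Fam129c, Cnp, Bach2, Hdac8 and Blk (each r = 0.98) and Cd72 (r = 0.97). All points share the control libraries, which stand apart, and over the 9 treated libraries the same 8 genes had r between 0.87 and 0.95. Over those 9 libraries Spib ranked first (r = 0.95), Cpm, Fam129c, Cnp and Bach2 ranked 2, 3, 6 and 7, and Rhoh, Cd72, Hdac8 and Blk ranked 25, 40, 42 and 50, so their place among the 8 rests on the difference from control by which Myl4 was chosen. Cpm, a membrane carboxypeptidase, had group means of 6.58 ± 0.901 FPKM (SD, n = 3) in control, 0.631 ± 0.563 in TBI, 0.579 ± 0.185 in DEIX and 0.228 ± 0.291 in TBI+DEIX. Cd72, a B cell surface receptor, had means of 49.5 ± 4.35 FPKM in control, 5.67 ± 4.00 in TBI, 7.13 ± 0.904 in DEIX and 3.02 ± 1.76 in TBI+DEIX. Blk, a Src-family kinase of B cells, had 13.9 ± 1.59 FPKM in control and 0.605 to 2.52 in the treated groups.

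Markers of maturing B cells were lower than control beside Myl4, and their part in its difference was not tested. The summed FPKM of 8 genes of maturing B cells was 501 to 608 in control, 143 to 261 in TBI, 267 to 376 in DEIX and 84.8 to 506 in TBI+DEIX. All 8 had lower means than control in all 3 treated groups. The fit across all genes called 7 of the 8 lower in TBI against control, 7 in TBI+DEIX and 5 in DEIX, where 3.10%, 13.1% and 2.72% of all tested genes were called lower. Cd74, the invariant chain of class II antigen presentation, made up 76.2% to 98.1% of that sum in every library, was at 410 and 495 FPKM in TBI+DEIX replicates 2 and 3 and was called in no comparison. The other 7 genes summed to 106 to 133 FPKM in control, 3.28 to 16.1 in TBI, 23.6 to 36.4 in DEIX and 2.07 to 10.7 in TBI+DEIX. Between treated groups limma called 2 of the 8 higher in DEIX than in TBI, Fcmr and Fcer2a. Of all tested genes 0.418% were called there in either direction. The median log2 difference of the 8 was 0.91, and the difference of Myl4 was -0.12 and not called. In TBI+DEIX against DEIX 4 of the 8 were called lower, beside 2.57% of all tested genes called. Myl4 was at -0.80 there and not called. The 14 genes of B cell precursors summed to 576 to 683 FPKM in control, 68.3 to 554 in TBI, 94.3 to 139 in DEIX and 49.4 to 299 in TBI+DEIX, but its members did not all move one way. Means were lower than control for 9 of the 14 in TBI, 13 in DEIX and 12 in TBI+DEIX, and Dntt, Vpreb1, Vpreb2, Igll1 and Erg had higher means in TBI. Limma called 1 of the 14 lower in TBI (Il7r), 2 in DEIX (Il7r and Rag1) and 9 in TBI+DEIX. Erg was called higher in TBI and in TBI+DEIX, where 0.891% and 16.9% of all tested genes were called higher, and 0 of the 14 were called higher in DEIX (4.52% of all).

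Genes of heart muscle, the tissue in which Myl4 is best known, were close to 0. Their 5 markers summed to at most 0.479 FPKM in any library, and Nppa and Myl7, the atrial peptide and the atrial regulatory light chain, were listed at 0 in all 12. Markers of other cells were also lower beside Myl4, and their part was not tested. The 8 genes of T and NK cells had lower means than control in all 3 treated groups, with sums of 147 to 182 FPKM in control, 94.6 to 136 in TBI, 125 to 189 in DEIX and 53.1 to 141 in TBI+DEIX. Limma called 2, 0 and 3 of these 8 lower in TBI, DEIX and TBI+DEIX, beside 3.10%, 2.72% and 13.1% of all tested genes. The 6 genes of stem and progenitor cells had 6, 4 and 6 lower means in those groups, with sums of 50.4 to 52.9 FPKM in control, 22.5 to 28.2 in TBI, 38.4 to 53.8 in DEIX and 14.1 to 28.1 in TBI+DEIX, and 2, 0 and 4 were called lower. The 5 genes of eosinophils, basophils and mast cells had 4, 5 and 4 lower means, with sums of 226 to 264 FPKM in control and 88.2 to 220 in the 9 treated libraries, and 0, 1 and 1 were called lower. Markers of erythroid cells did not order the groups as Myl4 did, with sums of 4824 to 7917 FPKM in control, 2531 to 12279 in TBI, 1928 to 11376 in DEIX and 280 to 2267 in TBI+DEIX. Means of 0, 7 and 12 of these 12 genes were lower than control in TBI, DEIX and TBI+DEIX, and 0, 0 and 8 were called lower. Megakaryocyte and platelet markers, given with Myl9 below, also had lower sums in all 3 treated groups. The 7 genes of stroma, bone and endothelium summed to 28.2 to 33.7 FPKM in control, 20.3 to 40.9 in TBI, 12.4 to 20.7 in DEIX and 18.6 to 26.1 in TBI+DEIX. Means of 2, 7 and 4 of these 7 were lower than control in TBI, DEIX and TBI+DEIX. Limma called 1, 1 and 2 of them lower, and 1 was called higher in TBI.

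Myl9, the regulatory chain most typical of smooth muscle and platelets, was also highest in control. Its libraries held 3.17, 2.37 and 3.08 FPKM in control, 0.750, 1.26 and 0.904 in TBI, 1.18, 1.94 and 2.35 in DEIX, and 1.28, 1.20 and 1.59 in TBI+DEIX. No treated library reached the lowest control library, although DEIX replicate 3 (2.35) came close to it. The log2 means differed from control by -0.98 in TBI, -0.47 in DEIX (-0.30 without DEIX replicate 1) and -0.71 in TBI+DEIX.

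Megakaryocyte and platelet markers moved with Myl9, and their part in it was not tested. The 10 genes of that list summed to 127 to 189 FPKM in control, 44.9 to 64.6 in TBI, 76.5 to 126 in DEIX and 30.0 to 57.8 in TBI+DEIX, and 9, 9 and 10 of the 10 had lower means than control in those groups. Limma called 5, 1 and 8 of the 10 lower, beside 3.10%, 2.72% and 13.1% of all tested genes. Pf4, a chemokine of platelet granules, was at 50.6 to 71.4 FPKM in control and 4.02 to 37.4 in the other libraries. Of 5 genes of smooth muscle and pericytes only Acta2, the smooth muscle actin, was above 1 FPKM in most libraries (1.30 to 7.04), and the smooth muscle heavy chain Myh11 was below 0.1 FPKM in all 12.

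Myl10 had another pattern and was high in 3 libraries. It stood at 0.685, 0.885 and 1.10 FPKM in control and at 1.16, 4.45 and 4.13 in TBI. In TBI+DEIX it stood at 0.314, 3.42 and 0.745 FPKM, and in DEIX at 0.479, 0.388 and 0.444. All 3 TBI libraries were above control, and all 3 DEIX libraries below it, while the TBI+DEIX libraries lay on both sides. The log2 means differed from control by 1.06 in TBI, -0.39 in DEIX and 0.20 in TBI+DEIX (0.56 without TBI+DEIX replicate 1 and -0.31 without replicate 2). The range over 12 libraries was 14.1-fold, and within both irradiated groups replicates differed several-fold.

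The libraries high in Myl10 were those high in the surrogate light chain genes of early B cells. Vpreb2 stood at 12.4, 11.3 and 11.0 FPKM in TBI replicates 2 and 3 and TBI+DEIX replicate 2, and at 4.27 FPKM or lower in the other 9. Igll1, also a component of the precursor B cell receptor, stood at 74.9, 94.2 and 42.0 FPKM in those 3 libraries, at 35.2 to 38.3 in control and at 9.15 or lower in the rest. Over the 9 treated libraries Pearson's r with Myl10 was 0.97 for Vpreb2 and 0.97 for Igll1. Over all 12 it was 0.90 and 0.79, and control was high in Igll1 but not in Myl10. The part of precursor B cells in the Myl10 levels was not tested. Myl4 was not raised to its control level in any of these 3 libraries (2.87, 4.46 and 1.91 FPKM). They were nonetheless the highest in Myl4 within their groups, where TBI replicate 1 held 1.07 FPKM and TBI+DEIX replicates 1 and 3 held 0.201 and 0.823. The log2 ratio of Myl4 to Myl10 was -0.15 ± 0.30 (SD, n = 3) in TBI and -0.22 ± 0.34 in TBI+DEIX. It was 1.17 ± 0.27 in DEIX and 4.10 ± 0.05 in control.

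**Figure D2:**
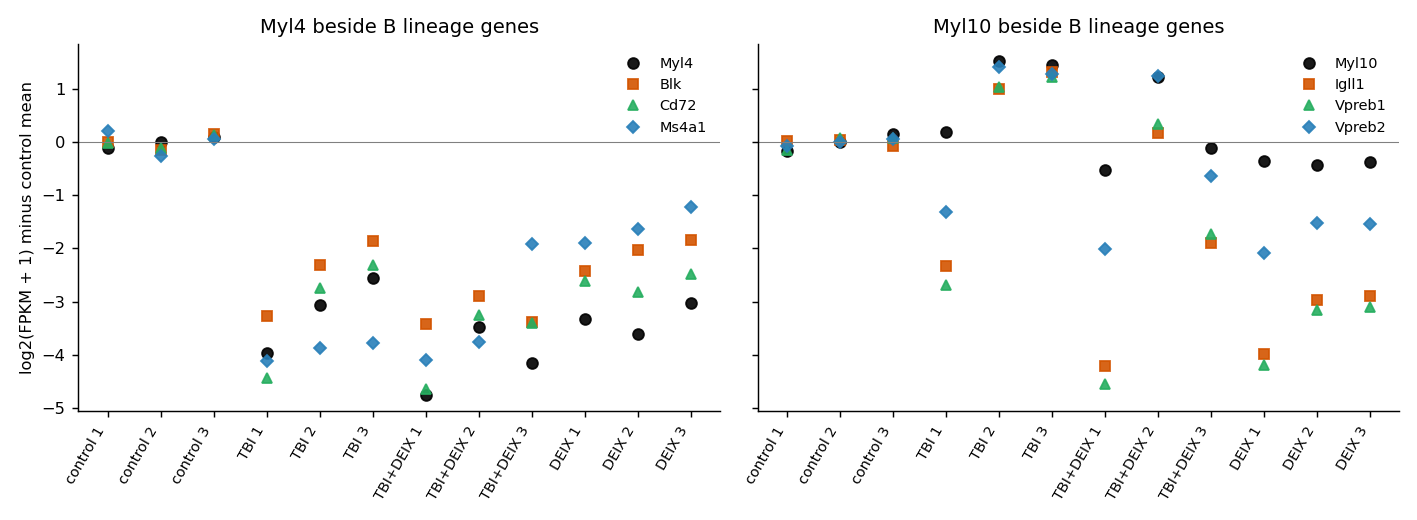
Level of Myl4 (left) and Myl10 (right) in each of 12 libraries, as log2(FPKM + 1) minus the control mean, beside 3 B lineage genes each. Myl4 lies well below 0 in all 9 treated libraries with Blk and Cd72, and Ms4a1 is below 0 there too. Myl10 is above 1 in 3 treated libraries, the only treated ones in which Igll1, Vpreb1 and Vpreb2 are above 0.

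Myl6 carried most of the light chain signal in every library. It stood at 792, 886 and 1070 FPKM in control, 954, 909 and 782 in TBI, 1055, 778 and 857 in DEIX, and 539, 1247 and 1360 in TBI+DEIX. The groups overlapped in every pairing, and TBI+DEIX held both its lowest and its highest library. FPKM is per transcript length, so levels of different genes can be set side by side, and Myl6 made up 59.5% to 68.2% of the summed FPKM of the 7 identifiers. Myl4 made up 2.15% to 2.39% of that sum in the 3 control libraries and 0.0222% to 0.351% in the 9 others. Myl6 lies at chr10:128490860-128494145 on the minus strand, 12 bp from Myl6b, another essential chain, which stayed between 1.44 and 2.40 FPKM.

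Myl12a and Myl12b, the regulatory chains of non-muscle myosin, lie next to each other on the minus strand of chromosome 17 at chr17:70993656-71002878 and chr17:70973133-70990890. A second identifier of Myl12b runs across both genes at chr17:70974119-71002208, called the spanning locus here. All of its 1201 exon bases lie in exons of the other identifiers, 462 in Myl12a and 739 in Myl12b, so how fragments were divided among the 3 is uncertain. The coding sequences of Myl12a and Myl12b were identical at 498 of 516 aligned bases (96.5%), with an identical run of 102 bases, and Myl9 matched Myl12b at 86.4%. Myl4 matched Myl6 at 58.3% and Myl12b at 50.2%. The first 120 coding bases of the 2 genes, read from the GENCODE vM21 models on GRCm38, show how alike their fragments are, with the 5 differing bases in capitals.
Myl12a: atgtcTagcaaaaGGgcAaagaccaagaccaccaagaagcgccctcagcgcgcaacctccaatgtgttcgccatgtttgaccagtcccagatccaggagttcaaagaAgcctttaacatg
Myl12b: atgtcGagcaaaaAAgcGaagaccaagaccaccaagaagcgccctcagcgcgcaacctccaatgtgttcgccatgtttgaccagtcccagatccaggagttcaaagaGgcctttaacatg
Between the fourth and the fifth capital lies a long stretch with no base that tells the genes apart.

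Myl12a was at 127, 125 and 135 FPKM in control, 153, 155 and 145 in TBI, 170, 134 and 146 in DEIX, and 118, 202 and 217 in TBI+DEIX. The TBI libraries were all above control, by 0.23 in the log2 mean. Myl12b at its own locus was at 178, 200 and 248 FPKM in control, 223, 198 and 211 in TBI, 267, 206 and 240 in DEIX, and 158, 301 and 326 in TBI+DEIX, and its groups overlapped. The spanning locus was at 104, 71.7 and 79.4 FPKM in control and at 124, 121 and 124 in TBI. It was at 89.1, 158 and 191 FPKM in TBI+DEIX and at 116, 132 and 133 in DEIX, so TBI and DEIX lay above control in every library. In all 3 identifiers TBI+DEIX replicate 1 was far below replicates 2 and 3 of its group. The log2 mean of TBI+DEIX differed from control by 0.10 for Myl6, 0.42 for Myl12a, 0.27 for Myl12b at its own locus and 0.72 for the spanning locus. These values were 0.52, 0.69, 0.60 and 1.04 without TBI+DEIX replicate 1, and -0.15, 0.26, 0.078 and 0.50 without TBI+DEIX replicate 3.

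Counted over the 7 identifiers, libraries did not overlap with control in 5 for TBI (3 higher, 2 lower), 2 for TBI+DEIX (both lower) and 4 for DEIX (1 higher, 3 lower). Myl4 and Myl9 were the lower ones in all 3 groups, joined by Myl10 in DEIX. Over all 10994 tested genes, groups did not overlap with control in 22.0% (higher) and 16.3% (lower) for TBI, 23.9% and 21.1% for TBI+DEIX, and 23.4% and 17.2% for DEIX. These comparisons share the control libraries, and the choice of genes used them.

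**Figure D3:**
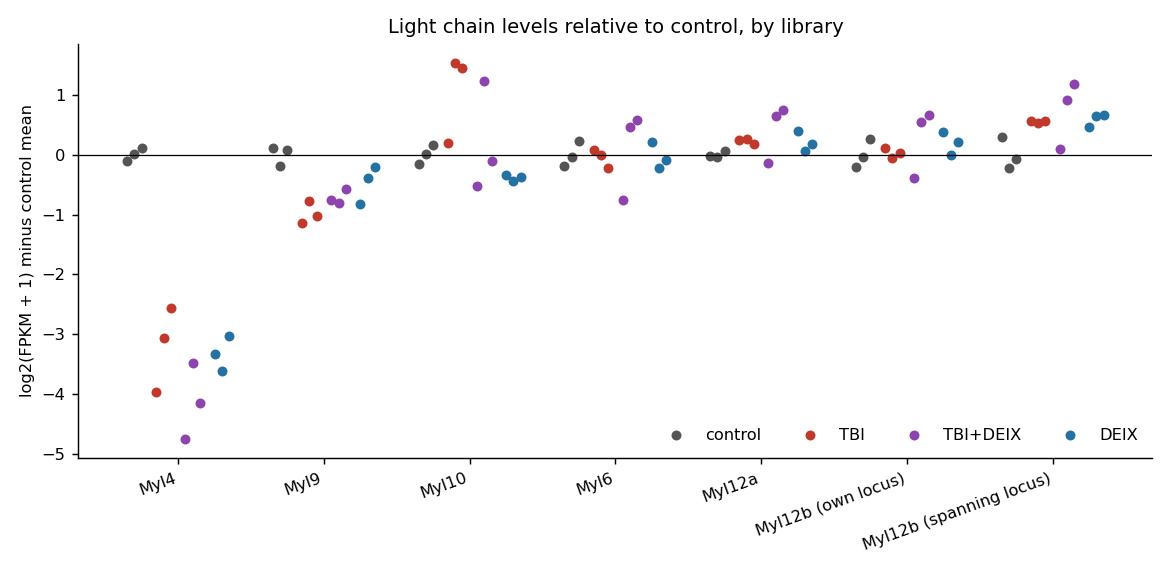
Each library's log2(FPKM + 1) minus the control mean for the 7 identifiers, with points coloured by group. Myl4 is the only one of the 7 with all treated libraries below -2, while Myl6 and the Myl12 identifiers scatter within about 1 of the control mean.

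The ratio of Myl4 to the other light chains was formed within each library, where a scaling of the whole library cancels apart from the pseudocount. The log2 ratio of Myl4 to the mean of the others was -0.62 ± 0.09 (SD, n = 3) in control, -3.96 ± 0.62 in TBI, -3.96 ± 0.23 in DEIX and -4.91 ± 0.30 in TBI+DEIX. Control libraries ran from -0.70 to -0.52 and the 9 others from -5.18 to -3.35, without overlap. Against Myl6, the other essential chain, the log2 ratio was -4.82 ± 0.11 in control, -7.97 ± 0.85 in TBI, -8.10 ± 0.32 in DEIX and -9.04 ± 0.44 in TBI+DEIX. A ratio shows only that 2 genes changed unequally.

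The treated groups were then compared with each other. These differences do not use the control means, but control libraries share in the filter and in the estimate of the spread. Of the 6 identifiers other than Myl10, 0 were called in TBI+DEIX against TBI and 0 in DEIX against TBI, and of all 7, 0 were called in TBI+DEIX against DEIX (limma, adjusted p under 0.05 over 10994 genes). At an unadjusted limma p under 0.05 there was 1 in each, Myl4, Myl9 and Myl4. Over all tested genes 8.10%, 0.418% and 2.57% were called in those comparisons, and 27.2%, 16.8% and 16.2% had an unadjusted limma p under 0.05. The median log2 difference of these 6, 6 and 7 identifiers was 0.19, 0.03 and 0.13, beside 0.0032, 0.0013 and 0.02 over all tested genes. DEIX against TBI differs in irradiation as well as in the compound.

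Myl4 was no nearer to its control level in TBI+DEIX than in TBI. Myl4 was 0.93 lower on the log2 scale in TBI+DEIX than in TBI (SE 0.36, 95% interval -1.71 to -0.14, limma adjusted p = 0.124). The libraries overlapped, and the interval lies below 0. Without TBI replicate 1 the difference was -1.31 and was called (limma adjusted p = 0.0386), and without TBI+DEIX replicate 1 it was -0.61 (limma adjusted p = 0.203). Against DEIX alone, Myl4 was 0.80 lower in TBI+DEIX (SE 0.36, interval -1.59 to -0.02, limma adjusted p = 0.295). Without TBI+DEIX replicate 1 that difference was -0.49 and its interval included 0 (-1.25 to 0.27, limma adjusted p = 0.397). DEIX minus TBI was -0.12 (interval -0.91 to 0.66, limma adjusted p = 0.894), so differences of either sign within that interval remain compatible with these libraries.

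Myl10 was 1.45 lower in DEIX than in TBI on the log2 scale, and its libraries did not overlap. Groups did not overlap in that direction for 10.6% of tested genes. Between TBI+DEIX and TBI the Myl10 difference was -0.86, and it ran from -1.37 without TBI+DEIX replicate 2, the library high in Vpreb2, to -0.50 without TBI+DEIX replicate 1. Between TBI+DEIX and DEIX it was 0.59 (interval -0.34 to 1.52, limma adjusted p = 0.555). That difference was 0.95 without TBI+DEIX replicate 1 (limma adjusted p = 0.176) and 0.076 without TBI+DEIX replicate 2. Myl9 was 0.50 higher in DEIX than in TBI (SE 0.17, interval 0.13 to 0.87, limma adjusted p = 0.181).

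**Figure D4:**
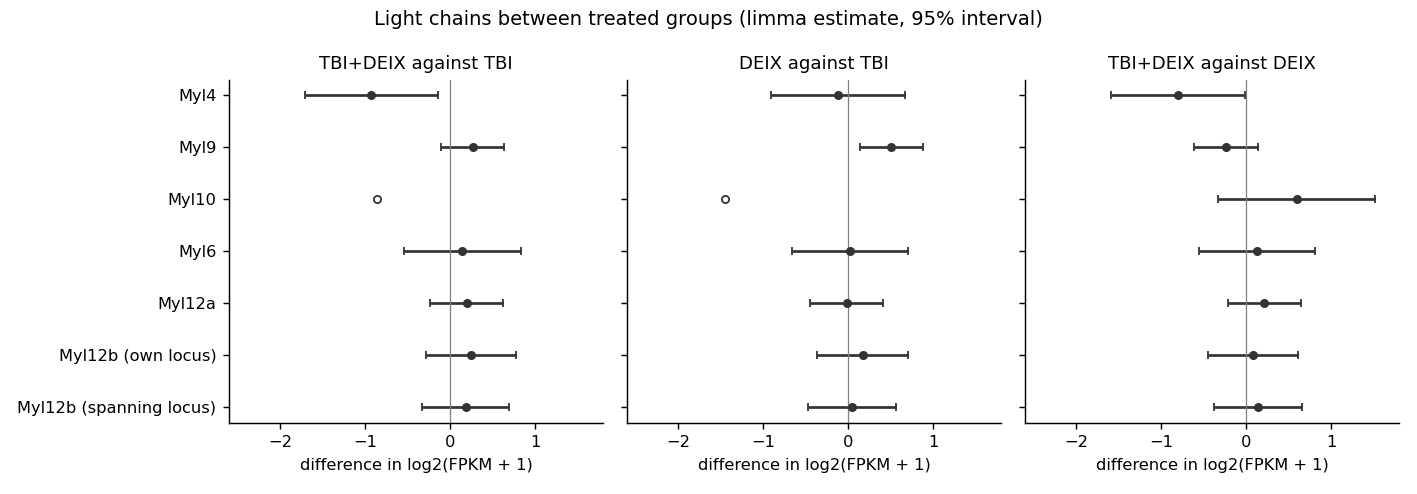
Estimated difference in log2(FPKM + 1) between treated groups for the 7 identifiers, with 95% intervals from the fit over all genes (3 libraries per group) except for Myl10 against TBI (open points). Myl4 lies at -0.93 and -0.80 in the 2 comparisons of TBI+DEIX, and the intervals of Myl6 and the Myl12 identifiers include 0 in all 3.

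The differences of the non-muscle chains depended on single libraries. With all 12 libraries Myl6, Myl12a and the 2 identifiers of Myl12b differed between TBI+DEIX and TBI by 0.14 to 0.24, with limma adjusted p from 0.557 to 0.804. Without TBI+DEIX replicate 3 the differences were -0.10 for Myl6, 0.028 for Myl12a, 0.052 for Myl12b at its own locus and -0.045 for the spanning locus. Without TBI+DEIX replicate 1 all 4 were called higher in TBI+DEIX, at 0.57 for Myl6 (limma adjusted p = 0.0360), 0.47 for Myl12a (adjusted p = 0.0137), 0.57 for Myl12b at its own locus (adjusted p = 0.0213) and 0.50 for the spanning locus (adjusted p = 0.0307). The 2 remaining TBI+DEIX libraries then stand for the group, and 25.8% of all tested genes were called, 16.2% as higher. Against DEIX, Myl12a alone of the 7 was called without that library (0.49, limma adjusted p = 0.0234), where 8.43% of tested genes were called and 4.83% were called higher. Markers of several cell types also differed between that library and the rest of its group, and their part in these differences was not tested. The 8 neutrophil markers summed to 12940 FPKM in TBI+DEIX replicate 1, 37686 and 34365 in replicates 2 and 3, and 17756 to 26169 in the other 9 libraries. The 6 monocyte and macrophage markers summed to 736, 1872 and 2561 FPKM in TBI+DEIX and 1251 to 2463 elsewhere. In replicate 1, 7 of the 8 neutrophil markers, 5 of the 6 monocyte markers and 8 of the 8 T and NK markers were lower than in both other TBI+DEIX libraries.

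The partners and regulators of the light chains were taken as 49 genes in 5 lists, of which 28 passed the filter. In TBI against control limma called 0 of the 28, beside 3.99% of all tested genes, and 3 of the 28 had an unadjusted limma p under 0.05, beside 18.1% of all. In TBI+DEIX against control 9 were called higher and 1 lower (35.7% of 28, beside 30.0% of all tested genes), with a median log2 difference of 0.14 beside 0.02 over all genes. In DEIX against control 3 were called higher and 1 lower (14.3%, beside 7.24%), and in TBI+DEIX against TBI 4 were called higher and 0 lower (14.3%, beside 8.10%). DEIX against TBI had 0 calls (6 at an unadjusted limma p under 0.05), beside 0.418% of all tested genes, and TBI+DEIX against DEIX had 1, Cdc42bpb, beside 2.57%. Leaving out 1 library changed these counts. In TBI+DEIX against TBI there were 8 higher and 4 lower calls without TBI+DEIX replicate 1, 3 higher calls without TBI+DEIX replicate 2, 1 without TBI replicate 1, and 0 without TBI+DEIX replicate 3, TBI replicate 2 or TBI replicate 3. In DEIX against control there were 4 higher calls without DEIX replicate 2, 1 without DEIX replicate 3, and 0 without DEIX replicate 1 or any 1 of the 3 control libraries, and 1 lower call without DEIX replicate 2 and 0 without each of the other 5 libraries. Over all tested genes those fits called 938 without DEIX replicate 2, 218 without replicate 3, 165 without replicate 1 and 146 to 186 without a control library. In TBI+DEIX against control leaving out 1 library gave 6 to 13 higher calls, the most without TBI+DEIX replicate 1. Over all tested genes those fits called 2004 to 4232 genes, also the most without TBI+DEIX replicate 1. Under scaling to an equal sum per library (TPM) 1 higher call was left in TBI+DEIX against control, and 0 in DEIX against control and in TBI+DEIX against TBI. Over all tested genes the higher calls also fell, from 1855 to 546, from 497 to 54 and from 516 to 54 in those comparisons.

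Among the heavy chains, Myh9, the non-muscle heavy chain IIA of blood cells and platelets, rose in TBI+DEIX. It stood at 231, 218 and 228 FPKM in control, 345, 290 and 267 in TBI, 342, 293 and 378 in DEIX, and 428, 426 and 432 in TBI+DEIX. All TBI+DEIX libraries were above all others. The difference from control was 0.92 (SE 0.13, limma adjusted p = 0.000765) and was called under all 12 alternative settings. Against TBI it was 0.52 (SE 0.13, limma adjusted p = 0.0381) and was lost in 7 of 12 settings. DEIX alone was 0.57 above control (limma adjusted p = 0.0303), a call lost in 6 of 12. Myh10, the second non-muscle heavy chain tested, passed no comparison, and its difference between TBI+DEIX and TBI was -1.06 (limma adjusted p = 0.0561).

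Among genes for enzymes that act on the regulatory chains, several were called higher in TBI+DEIX than in control. They were the myosin phosphatase genes Ppp1cb, its catalytic subunit (0.31), and Ppp1r12a and Ppp1r12c, its targeting subunits (0.46 and 0.42), and the kinase Rock1 (0.43). The guanine nucleotide exchange factors Arhgef1, Arhgef2 and Arhgef11 (0.65, 0.53 and 0.59) were called higher too, with limma adjusted p between 0.0035 and 0.0370 for these 7. Ppp1cb lost its call in 8 of 12 settings, Ppp1r12a in 6, Arhgef11 in 3, Ppp1r12c in 2, and Rock1, Arhgef1 and Arhgef2 in 1 each. Arhgef1, Arhgef2 and Ppp1r12c were called higher also against TBI (0.54, 0.41 and 0.41, limma adjusted p = 0.0406, 0.0360 and 0.0355), and each lost that call in 7 or 8 of 12 settings.

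Mylk3, a light chain kinase best known in heart, was called lower in TBI+DEIX than in control (-1.26, SE 0.36, limma adjusted p = 0.0213). Its libraries held 3.66, 3.51 and 3.94 FPKM in control, 5.18, 1.58 and 4.01 in TBI, 1.37, 4.25 and 1.41 in DEIX, and 1.51, 0.979 and 0.518 in TBI+DEIX, and the call was lost in 4 of 12 settings. Erythroid markers were also lower in TBI+DEIX, and their part was not tested. The 12 erythroid genes summed to 12279, 2531 and 4759 FPKM in TBI, 2241, 11376 and 1928 in DEIX, and 280, 2267 and 607 in TBI+DEIX, and limma called 8 of the 12 lower in TBI+DEIX than in control, beside 13.1% of all tested genes. Within TBI and within DEIX the library highest in Mylk3 was the one highest in these markers, but within TBI+DEIX it was the one lowest in them (replicate 1). Cdc42bpb, a kinase related to Rock1, was called higher in DEIX than in control (0.71, limma adjusted p = 0.0243) and lower in TBI+DEIX than in DEIX (-0.76, limma adjusted p = 0.0311). It stood at 3.51, 4.65 and 3.20 FPKM in DEIX and at 2.31 FPKM or lower in the other 9 libraries. Rhob, a small GTPase, was called higher (0.57, limma adjusted p = 0.0311) and Mylip, a ubiquitin ligase that binds regulatory light chains, lower (-0.59, limma adjusted p = 0.0461) in DEIX than in control. The calls of Cdc42bpb, Rhob and Mylip against control were lost in 5, 8 and 9 of 12 settings, and that of Cdc42bpb in TBI+DEIX against DEIX in 7 of 12.

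**Figure D5:**
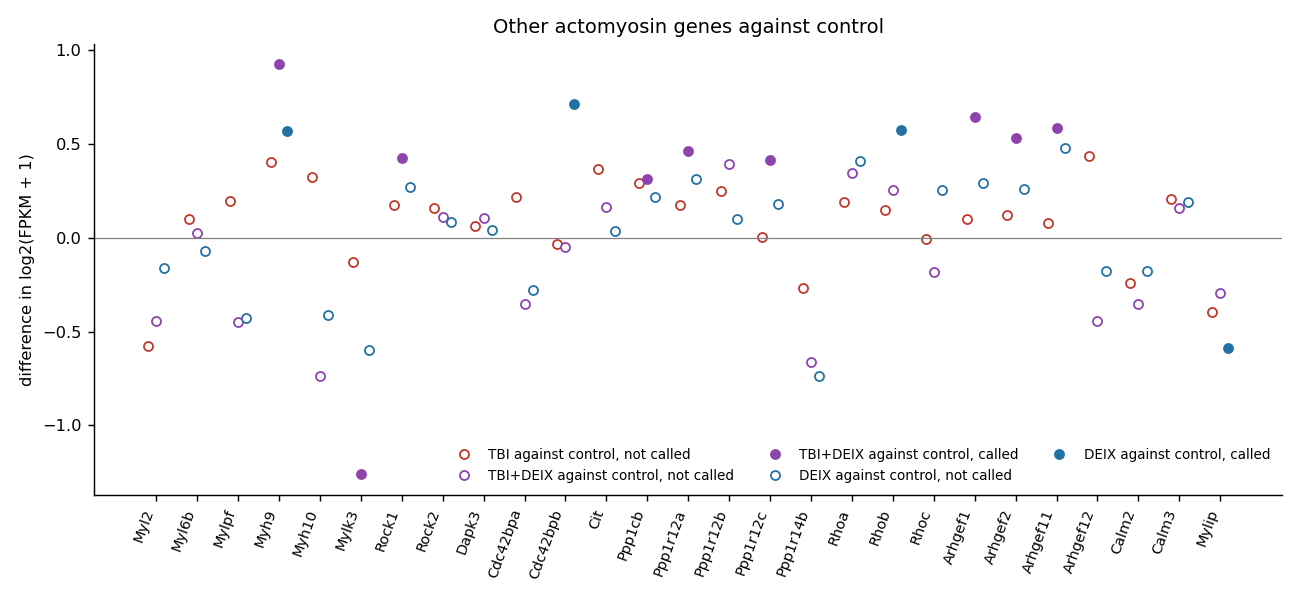
Difference from control in log2(FPKM + 1) for 27 of the 28 tested partner and regulator genes (horizontal axis) in 3 treated groups, filled where limma called the gene. Myh9 at 0.92 and Mylk3 at -1.26 in TBI+DEIX are the extremes, and no gene is filled for TBI.

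The other light chain genes gave no call in any of the 6 comparisons. Of 6 listed, Myl3 and Myl7 were at 0 in all libraries, Myl1 was below 0.1 FPKM in all 12, and Myl2, Myl6b and Mylpf passed the filter. Mylpf, the regulatory chain of fast skeletal muscle, stood at 3.97 to 5.63 FPKM in control, 4.85 to 6.67 in TBI, 2.27 to 4.20 in DEIX and 2.42 to 3.84 in TBI+DEIX. Its difference between TBI+DEIX and TBI was -0.64 (SE 0.20, limma adjusted p = 0.0650). Myl2, the ventricular regulatory chain, ranged from 0.549 to 4.35 FPKM, and its largest difference from control was -0.58 in TBI (limma adjusted p = 0.414).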

How the data were processed

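Messenger RNA of whole bone marrow was sequenced from 12 libraries made with a directional kit, per the labels' protocols. The deposited table gives FPKM as computed by the authors. STAR 2.6, Cufflinks 2.2.1 and the build mm10 are named in the submitters' processing notes, without their roles, and the annotation is not given in the sources used here. FPKM holds no counts, so read totals are unknown. All 21853 identifiers matched GENCODE vM21, which gave symbols and coordinates. S100a8, S100a9 and Ngp, abundant genes, are listed at 0 in some libraries, which affects sums per library.

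Differences were fitted on log2(FPKM + 1) with limma 3.58.1 in R 4.3.3 (lmFit, eBayes with trend), in 1 model of 4 groups over 12 libraries, for 10994 genes with at least 1 FPKM in at least 3 libraries. Genes with an adjusted p (Benjamini-Hochberg) under 0.05 were called. The fit was tried on simulated independent values with changes set only in well-expressed genes. That trial does not cover low genes or a library that deviates as a whole. Partner genes were named where called, or among the 3 highest of their list, and the genes most like Myl4 were the 8 highest by r among genes with a group mean of at least 5 FPKM. 1 partner gene enters the counts but is not reported here by name. The likeness to Myl10 was computed after its values were seen. The members and all lists were chosen with earlier results of these data known. Alternatives were another pseudocount, no filter, 2 scalings, a fit on the 2 groups compared, a replicate block, and leaving out each library.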

Additional observations from a re-analysis of the deposited data

How the results depend on the processing

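Counts of called genes moved most. In TBI against control 439 genes were called, and 675 without a filter, 253 with TPM scaling and 1417 in a fit of the 2 groups alone. TBI+DEIX against control gave 3299, and 1785 (TPM) and 2181 (2 groups). DEIX against control gave 796, and 282 and 2057. TBI+DEIX against TBI gave 891, and 157 and 0. DEIX against TBI gave 46, and 107 without a filter and 21 with TPM. TBI+DEIX against DEIX gave 283, and 125 and 0. The cause was not tested. With the replicate block, TBI+DEIX against TBI gave 474 genes, DEIX against TBI 14 and TBI+DEIX against DEIX 180. Same-numbered libraries did not deviate together (r from -0.45 to 0.24 over 18 pairs), so the numbers were not taken as pairs. Leaving out 1 library gave 153 to 259, 2004 to 4232, 146 to 938, 5 to 2836, 1 to 290 and 50 to 927 genes in the order above. With TPM the share of higher calls fell from 22.3% to 9.49% in TBI against control, from 56.2% to 30.6% in TBI+DEIX, from 62.4% to 19.1% in DEIX, from 57.9% to 34.4% in TBI+DEIX against TBI and from 71.7% to 47.6% in DEIX against TBI. TPM moved the median of all genes to -0.12 in DEIX against control, -0.12 in TBI+DEIX against TBI and -0.15 in DEIX against TBI. Between treated groups the light chain estimates near 0 changed sign. With TPM, Myl6 (-0.14) and the spanning locus of Myl12b (-0.11) turned negative in DEIX against TBI, about as far as the median of all genes (-0.15). Leaving out 1 library gave, in TBI+DEIX against TBI, -1.31 to -0.61 for Myl4, -0.10 to 0.57 for Myl6, -1.37 to -0.50 for Myl10, 0.028 to 0.47 for Myl12a, 0.052 to 0.57 for Myl12b at its own locus and -0.045 to 0.50 at the spanning locus. In DEIX against TBI it gave -0.51 to 0.19 for Myl4, -0.11 to 0.11 for Myl6, -1.88 to -1.21 for Myl10 and -0.11 to 0.057 for Myl12a. In TBI+DEIX against DEIX it gave -1.13 to -0.49 for Myl4, 0.076 to 0.95 for Myl10, -0.12 to 0.55 for Myl6, 0.048 to 0.49 for Myl12a, -0.12 to 0.40 for Myl12b at its own locus and -0.091 to 0.45 at the spanning locus. With a pseudocount of 0.1 the log2 ratio of Myl4 to the other chains was -0.43 in control and -5.79 in TBI+DEIX. FPKM without read totals, 3 libraries per group and a TBI+DEIX replicate 1 estimated to be shallow limit the precision for low genes such as Myl4 in treated marrow, Myl9 and Myl10.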
